A study of Mus musculus with 5 samples.

Results

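The pancreatic acinar secretory genes are the digestive enzymes, granule proteins and lineage transcription factors of the exocrine pancreas. They were followed here through the RNA-sequencing libraries of 5 colorectal tumours. The members are 34 gene symbols fixed by name, and all 34 were found among the 54113 named entries of the count table. They were chosen because they stood high in 30 °C replicate 2 and in 4 °C replicate 2, so their levels in these libraries are a description and were not tested. The tumours came from C57BL/6 mice that carried the MC38 mouse colon adenocarcinoma line, a single established cell line. The mice were kept for 2 weeks at 30 °C (3 tumours), the thermoneutral control, or for 2 weeks at 4 °C (2 tumours). In the labels, tissue is named only as tumour, with no age, sex or implantation site, and the study's methods describe MC38 implantation both under the skin and into the liver. No other treatment or allele is named in the labels for either group. Nothing in the labels says that tumours with the same replicate number share an animal, a day or a batch.

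Acinar cells fill the exocrine pancreas and make the enzymes that digest protein, fat, starch and nucleic acids in the gut. Most of these proteases are stored in zymogen granules as inactive precursors and released into the duct when the hormone cholecystokinin or the vagus nerve calls for them. The programme is held on by the PTF1 complex, in which the basic helix-loop-helix factor Ptf1a binds DNA together with Rbpjl. Bhlha15 (also called Mist1) shapes the secretory apparatus and is also expressed in plasma cells. The regenerating (Reg) proteins are secreted lectins that rise in the pancreas during injury and inflammation. In a tissue sample of mixed cells, fewer cells of a type and less RNA per cell cannot be told apart.

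Between 16191708 and 20320525 counts per library fell on named genes, and no mitochondrial gene had a count. A count of 3 was taken as the floor, which corresponds to between 0.148 and 0.185 CPM, the count scaled to a common library total, depending on the library. Library 30 °C replicate 2 stood apart from the others through its acinar transcripts, and its trimmed-mean-of-M-values (TMM) scaling factor was 0.738 against 1.03 to 1.13 in the other 4. The 10 measured genes of a carcinoma epithelium list summed to between 19.2 and 133 CPM, with Cdx2, an intestinal transcription factor, at 0 to 8 counts. The top of that range was 30 °C replicate 2, where 8 of the 10 were highest. This list shares genes, Krt19 among them, with the pancreatic duct list used below, so its sum is not read as an amount of carcinoma. In the same libraries 8 plasma cell genes summed to between 1432 and 2494 CPM, and 7 genes of the splenic mesenchyme to between 70.3 and 159.5 CPM. A list of 8 fibroblast genes summed to between 383 and 1270 CPM. Sums of different lists do not measure how much of each tissue was present.

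Members on the same chromosome often lie side by side. The 34 genes are spread over 11 chromosomes, 10 of them on chromosome 6, and 16 have another member within 200 kb. On chromosome 6 of GRCm38 the trypsinogens among the members run from Try4, which starts at 41302269, to Prss2, which ends at 41525079. Reg3b, Reg2 and Reg1 lie between 78370657 and 78428667 on the same chromosome. The lipase genes Pnlip, Pnliprp1 and Pnliprp2 share a stretch of chromosome 19 from 58652498 to 58777534. On chromosome 4 the annotated gene model of Ctrc (141814962 to 141846359) spans the whole of Cela2a (141814962 to 141826160), so reads in the shared exons could not be assigned from counts alone.

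The upstream sequences below belong to 4 genes whose shares of the acinar counts in 30 °C replicate 2 and 4 °C replicate 2 were within 2-fold of each other (Ctrb1, Cpa1, Rbpjl and Cela2a) and to 4 whose shares were not (Reg2, Reg3b, Amy2a5 and Bhlha15). RefSeq promoters on GRCm38.p6 were at hand for 29 of the 34 members. Each is printed 5′ to 3′ on the strand of the gene for the 250 bases before the transcription start. Capitals mark 2 short motifs, the E-box CANNTG, read by basic helix-loop-helix factors such as Ptf1a and Bhlha15, and TGGGAA on either strand, read by Rbpj and Rbpjl.
Ctrb1: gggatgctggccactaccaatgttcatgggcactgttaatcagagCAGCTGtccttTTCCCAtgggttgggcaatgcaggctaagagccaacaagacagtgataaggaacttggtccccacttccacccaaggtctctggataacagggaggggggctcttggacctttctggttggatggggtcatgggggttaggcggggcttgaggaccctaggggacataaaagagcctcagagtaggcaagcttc
Cpa1: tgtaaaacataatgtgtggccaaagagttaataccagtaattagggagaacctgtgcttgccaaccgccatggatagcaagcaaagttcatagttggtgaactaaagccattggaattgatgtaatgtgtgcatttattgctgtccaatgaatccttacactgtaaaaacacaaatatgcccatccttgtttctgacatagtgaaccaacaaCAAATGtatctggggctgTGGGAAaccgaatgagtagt
Rbpjl: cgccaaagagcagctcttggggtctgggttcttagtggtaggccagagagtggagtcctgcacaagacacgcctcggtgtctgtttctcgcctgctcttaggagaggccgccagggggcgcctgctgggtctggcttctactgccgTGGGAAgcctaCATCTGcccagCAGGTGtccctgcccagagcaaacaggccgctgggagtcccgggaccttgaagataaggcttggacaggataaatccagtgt
Cela2a: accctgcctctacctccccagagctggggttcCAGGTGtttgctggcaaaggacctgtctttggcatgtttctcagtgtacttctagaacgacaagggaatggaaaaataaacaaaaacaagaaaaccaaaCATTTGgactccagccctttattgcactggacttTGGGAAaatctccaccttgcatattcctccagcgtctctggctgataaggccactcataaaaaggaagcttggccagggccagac
Reg2: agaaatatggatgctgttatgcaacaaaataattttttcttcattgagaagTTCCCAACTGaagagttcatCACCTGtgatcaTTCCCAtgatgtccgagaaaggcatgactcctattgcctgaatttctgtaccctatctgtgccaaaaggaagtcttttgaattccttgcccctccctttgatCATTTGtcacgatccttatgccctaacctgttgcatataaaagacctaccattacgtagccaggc
Reg3b: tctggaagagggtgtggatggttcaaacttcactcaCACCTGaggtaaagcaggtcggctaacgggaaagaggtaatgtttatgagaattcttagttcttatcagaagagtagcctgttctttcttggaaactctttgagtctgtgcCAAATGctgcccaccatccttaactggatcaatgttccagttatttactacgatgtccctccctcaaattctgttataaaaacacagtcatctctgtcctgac
Amy2a5: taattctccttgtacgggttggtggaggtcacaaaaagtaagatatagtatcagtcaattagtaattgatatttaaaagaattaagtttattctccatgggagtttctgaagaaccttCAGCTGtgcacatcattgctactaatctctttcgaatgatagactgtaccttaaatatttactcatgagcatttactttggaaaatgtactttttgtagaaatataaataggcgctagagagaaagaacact
Bhlha15: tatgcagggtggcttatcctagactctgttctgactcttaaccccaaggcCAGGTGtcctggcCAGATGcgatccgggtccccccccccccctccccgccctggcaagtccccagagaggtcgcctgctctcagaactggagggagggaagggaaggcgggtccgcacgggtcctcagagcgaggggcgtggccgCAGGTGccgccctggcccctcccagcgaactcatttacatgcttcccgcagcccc
These stretches lie at chr8:111691011-111691260 on the minus strand (Ctrb1), chr6:30638968-30639217 on the plus strand (Cpa1), chr2:164402944-164403193 on the plus strand (Rbpjl), chr4:141826006-141826255 on the minus strand (Cela2a), chr6:78404905-78405154 on the plus strand (Reg2), chr6:78370635-78370884 on the plus strand (Reg3b), chr3:113258700-113258949 on the minus strand (Amy2a5) and chr5:144190036-144190285 on the plus strand (Bhlha15). In windows from 250 bases before to 50 bases after the start, searched on both strands, TGGGAA was found in 18 of 29 members (62.1%) and in 25.6% of all 32851 RefSeq promoters of the same length. CANNTG was found in 24 of 29 members (82.8%) and in 72.3% of all promoters. Both motifs with starts at most 30 bases apart, overlaps included, were found in 8 of 29 members (27.6%) and in 7.20% of all promoters. The printed stretches of Ctrb1, Cpa1, Rbpjl and Reg2 hold such a pair, that of Cela2a holds both motifs farther apart, and those of Reg3b, Amy2a5 and Bhlha15 hold an E-box without TGGGAA. The pair thus occurred on both sides of the 2-fold bound, and the stretch before Pnlip, a gene within it, held TGGGAA and no E-box. These matches are a description of letters, and binding was not measured.

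Summed over the 34 members, acinar transcripts made up 27.7% of the counts of 30 °C replicate 2, or 277004 CPM (95% Wilson interval 276789 to 277220). In 4 °C replicate 2 they reached 2969 CPM (95% Wilson interval 2943 to 2996). The sum was 101.6 CPM in 30 °C replicate 1, 47.7 CPM in 30 °C replicate 3 and 36.8 CPM in 4 °C replicate 1. The summed level in 30 °C replicate 2 was therefore 93.3-fold that of 4 °C replicate 2, the next highest library. The intervals hold for counting error alone, because reads copied by PCR and not tagged by molecule are not independent. All 34 members had their highest CPM in 30 °C replicate 2, and 32 were higher in 4 °C replicate 2 than in each of the remaining 3 libraries. No floor was applied here, so the 32 include Prss1 with 1 count in 4 °C replicate 2. They also include Rbpjl, with 0.309 CPM there and 0.295 CPM in 30 °C replicate 3. The exceptions were Bhlha15, which was lowest there, and Cela3a, which had 0 counts in every library but 30 °C replicate 2. Of the 20 genes with the most counts in 30 °C replicate 2, 15 were members.

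**Figure D1:**
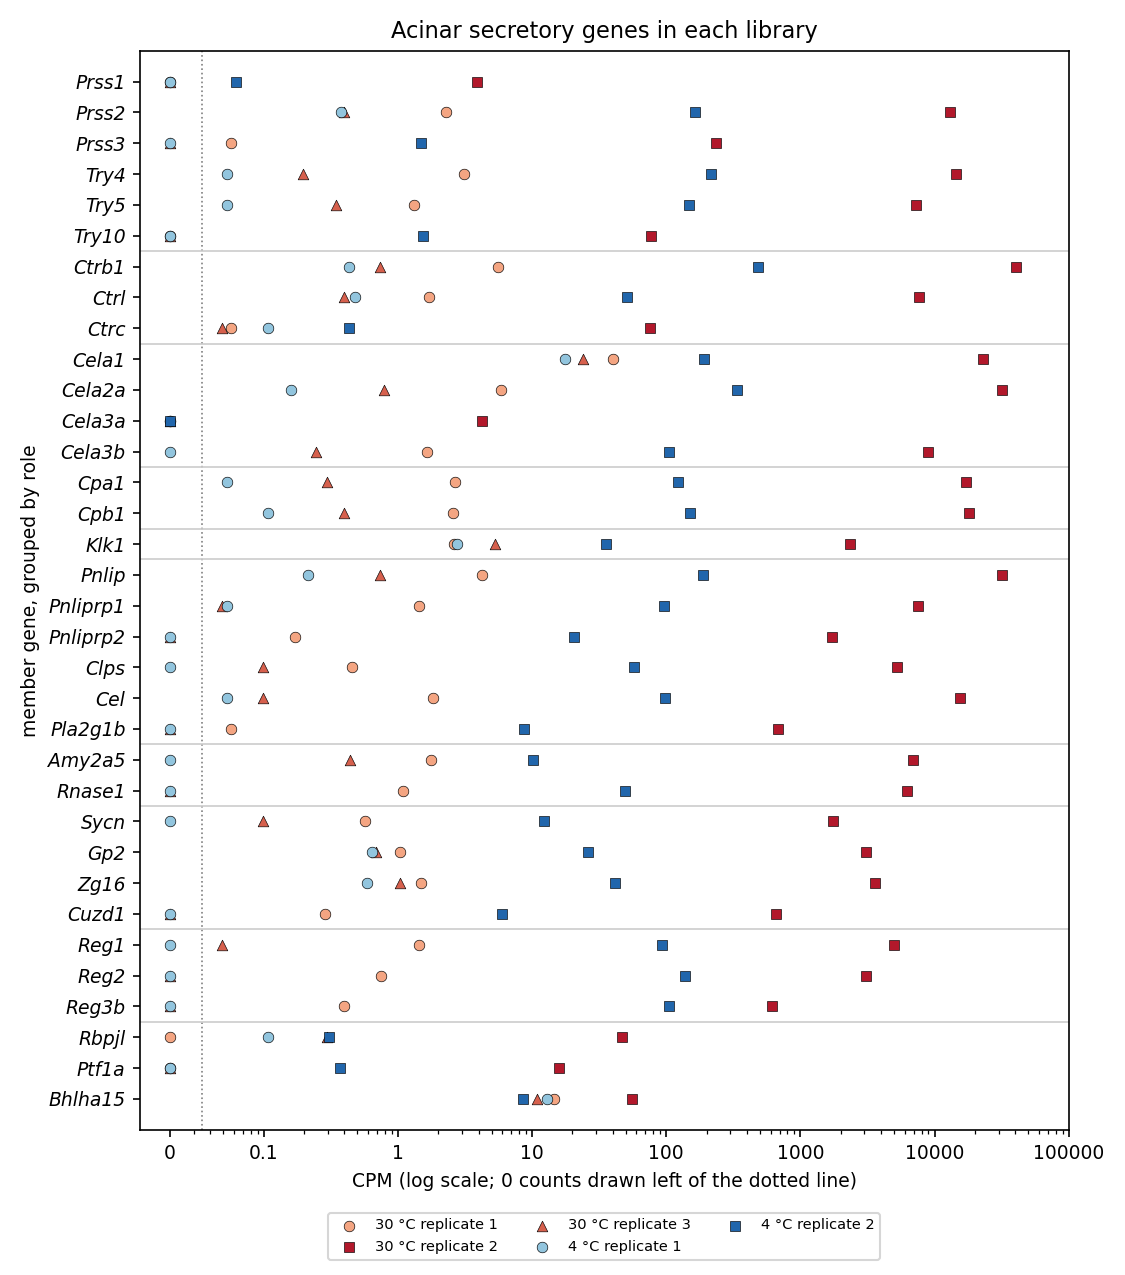
CPM of each of the 34 members (rows, grouped by role) in the 5 libraries on a log axis, with 0 counts drawn left of the dotted line. The 30 °C replicate 2 points lie to the right in all 34 rows and the 4 °C replicate 2 points come next in 32, while in the remaining libraries all members except Cela1 and Bhlha15 stay at or under 5.83 CPM.

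In the remaining libraries Cela1 and Bhlha15 gave most of the low sums. Without these members the sum was 46.4 and 12.7 CPM in 30 °C replicates 1 and 3. In 4 °C replicate 1 it was 6.23 CPM. Without Bhlha15, Zg16, Klk1, Rnase1 and Cela1 the sum fell to 41.2 CPM in 30 °C replicate 1, 6.40 CPM in 30 °C replicate 3 and 2.90 CPM in 4 °C replicate 1. In 30 °C replicate 2 and 4 °C replicate 2 the same 29 genes still reached 241939 and 2643 CPM. In 4 °C replicate 1, 16 of the 34 members had 0 counts, and 11 of these had none in 30 °C replicate 3 either.

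Trypsinogens are the precursors of the protease that activates the other zymogens. The 6 among the members were led by Try4, Prss2 and Try5. Try4 had 3.09, 14324 and 0.197 CPM in 30 °C replicates 1, 2 and 3, and 0.0537 and 216 CPM in 4 °C replicates 1 and 2. Prss2, the anionic trypsinogen, had 2.29, 12932 and 0.394 CPM at 30 °C and 0.376 and 163 CPM at 4 °C. In both genes 30 °C replicate 2 was highest, and 4 °C replicate 2 lay above the other 2 tumours at 30 °C, so the groups overlapped. Prss1 was the least abundant member of the family, with 64 counts in 30 °C replicate 2, 1 count in 4 °C replicate 2 and 0 elsewhere. Prss3 had 3875 counts in 30 °C replicate 2 and 24 in 4 °C replicate 2, and Try10 had 1283 and 25, with at most 1 count of either elsewhere. Except for Prss2, the trypsinogens among the members share much of their sequence with other genes. Of the 50-base windows of the longest transcript, 65.6% in Try4, 66.1% in Prss3 and 53.9% in Try5 also occur in transcripts of other genes, against 7.83% in Prss2. How reads shared by several genes were counted is not given in the sources used here, so the split within the family is uncertain.

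Among the chymotrypsinogens, Ctrb1 was the most abundant of all members in 30 °C replicate 2 and 4 °C replicate 2, both in CPM and in CPM per kilobase of exon. In the other 3 libraries Cela1 stood above it on both scales. It had 5.55, 40287 and 0.738 CPM in 30 °C replicates 1, 2 and 3, and 0.430 and 484 CPM in 4 °C replicates 1 and 2. Per kilobase of exon, the level of Ctrb1 was 45885 CPM in 30 °C replicate 2, followed by the elastase Cela2a at 18337 and Try4 at 17883. Ctrl stood at 7668 CPM in 30 °C replicate 2 and 50.8 CPM in 4 °C replicate 2, and Ctrc, a regulator of trypsinogen activation whose model overlaps Cela2a, at 75.4 and 0.432 CPM.

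The elastases differed in how far they were confined to these libraries. Cela2a had 5.83, 31594 and 0.787 CPM in the tumours at 30 °C and 0.161 and 339.9 CPM in those at 4 °C. Cela1, by contrast, had at least 17.7 CPM in every library, with 40.4, 22840 and 24.1 CPM at 30 °C and 17.7 and 191 CPM at 4 °C. Cela1 alone made up 490 of the 970 member counts of 30 °C replicate 3 and 330 of the 685 of 4 °C replicate 1. Cela3b reached 8909 CPM in 30 °C replicate 2, while its neighbour Cela3a had 70 counts there and 0 in the other 4 libraries. The carboxypeptidases Cpa1 and Cpb1, which trim peptides from their carboxyl end, stood at 17079 and 18166 CPM in 30 °C replicate 2 and at 123 and 149 CPM in 4 °C replicate 2. Klk1, a kallikrein that releases kinins and is also made in kidney and salivary gland, had 2.63, 2327 and 5.31 CPM at 30 °C and 2.74 and 35.7 CPM at 4 °C.

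Enzymes of lipid digestion were led by pancreatic lipase. Pnlip had 4.23, 31662 and 0.738 CPM at 30 °C and 0.215 and 189 CPM at 4 °C. Its cofactor colipase, Clps, had 0.458, 5219 and 0.0984 CPM at 30 °C, and 0 counts and 57.8 CPM at 4 °C. Cel, the bile salt-activated lipase, stood at 15356 CPM in 30 °C replicate 2 and at 97.8 CPM in 4 °C replicate 2. The other 3 genes of the group, Pnliprp1, Pnliprp2 and the phospholipase Pla2g1b, ranged from 680 to 7587 CPM in 30 °C replicate 2 and from 8.71 to 95.9 CPM in 4 °C replicate 2. All 6 had at most 74 counts in each of the other 3 libraries.

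Granule and membrane proteins showed the same order of libraries at lower levels. Sycn, which lines the inside of the zymogen granule membrane, had 0.572, 1739 and 0.0984 CPM at 30 °C, and 0 counts and 12.3 CPM at 4 °C. Gp2, the major glycoprotein of that membrane, had 1.03, 3059 and 0.689 CPM at 30 °C and 0.645 and 26.2 CPM at 4 °C. Zg16, a granule lectin also made by intestinal goblet cells, reached 3593 and 41.8 CPM in 30 °C replicate 2 and 4 °C replicate 2, and Cuzd1 reached 661 and 5.99 CPM. The secreted ribonuclease gene Rnase1 stood at 6249 and 49.0 CPM in these libraries.

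In 30 °C replicate 2 the transcription factors had the lowest levels per kilobase of all members apart from Prss1 and Cela3a. Ptf1a had 261 counts (15.8 CPM) in 30 °C replicate 2 and 6 counts (0.371 CPM) in 4 °C replicate 2, and 0 counts in the other 3 libraries, where the floor of 3 counts is at most 0.172 CPM. Rbpjl had 780 counts in 30 °C replicate 2 and 5 in 4 °C replicate 2, but also 6 in 30 °C replicate 3. At this depth, the level of Rbpjl in 4 °C replicate 2 could not be told from that in 30 °C replicate 3, since their 95% Wilson intervals overlapped (0.132 to 0.723 and 0.135 to 0.644 CPM). Bhlha15 behaved unlike the other members. It had 14.7, 55.9 and 10.9 CPM at 30 °C and 12.8 and 8.58 CPM at 4 °C, so it was present in every library and was lowest in 4 °C replicate 2. Plasma cell genes, a second known source of Bhlha15, were high in all 5 libraries, with Jchain, the joining chain of secreted antibody, between 920 and 1738 CPM. Their part in the Bhlha15 level was not tested.

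The make-up of the acinar counts was close between 30 °C replicate 2 and 4 °C replicate 2 despite the difference in amount. A share is given here as the percent of the summed counts of the 34 members in the same library. Of the 32 members with more than 3 counts in both libraries, 27 had shares that differed by at most 2-fold, with a median ratio of 1.06 (4 °C replicate 2 over 30 °C replicate 2). Across these 32 genes, Pearson's r between the log10 counts was 0.91. The points share their sequence composition, their lengths and the libraries, and genes are not independent replicates. In both libraries Ctrb1 ranked first, with 14.5% of the pool in 30 °C replicate 2 and 16.3% in 4 °C replicate 2, and Cela2a kept its share at 11.4% in both. Counting error was small, and for 26 of the 32 members the 95% counting interval of the ratio left out 1. With 1 library on each side there is no replicate of such a difference, so these ratios compare libraries and not temperatures.

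**Figure D2:**
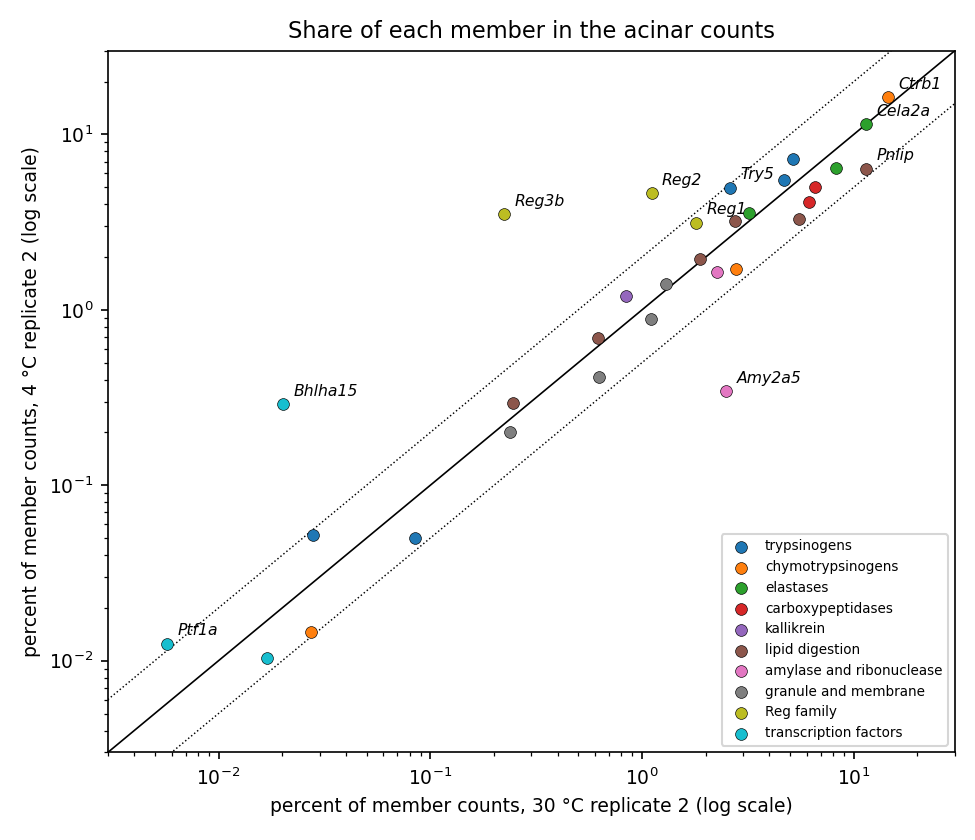
Share of each member in the summed member counts of 30 °C replicate 2 (x axis) and 4 °C replicate 2 (y axis), both log scales, for the 32 members with more than 3 counts in both. The solid line marks equal shares and the dotted lines a 2-fold difference. Reg3b, Reg2 and Bhlha15 lie well above the band and Amy2a5 well below it.

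The Reg genes took a larger share in 4 °C replicate 2. Together, Reg1, Reg2 and Reg3b made up 3.13% of the member counts in 30 °C replicate 2 and 11.3% in 4 °C replicate 2. Reg3b, an antibacterial lectin first described as a pancreatitis-associated protein, had 0.400, 618 and 0 CPM in 30 °C replicates 1, 2 and 3, and 0 and 104.5 CPM in 4 °C replicates 1 and 2. Its share was 0.223% in 30 °C replicate 2 and 3.52% in 4 °C replicate 2, and their ratio was 15.8 (95% counting interval 15.0 to 16.6). For Reg2 the levels in 30 °C replicate 2 and 4 °C replicate 2 were 3072 and 137 CPM and the ratio of shares was 4.17 (95% counting interval 4.00 to 4.35). For Reg1 they were 4975 and 93.4 CPM, with a ratio of 1.75 (1.67 to 1.84). Among the Reg genes that were members, the ratio was largest for Reg3b and smallest for Reg1. Reg3a, Reg3g and Reg3d, further genes of the family that were not members, had 0 counts in 30 °C replicates 1 and 3 and in 4 °C replicate 1. Relative to the summed member counts, Reg3a was 47.7-fold (43.2 to 52.6), Reg3g 75.0-fold (58.5 to 96.2) and Reg3d 2.77-fold (2.20 to 3.50) more abundant in 4 °C replicate 2 than in 30 °C replicate 2. In absolute terms Reg3g had 141 counts in 30 °C replicate 2 and 111 in 4 °C replicate 2, although the member sum differed 93.3-fold.

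**Figure D3:**
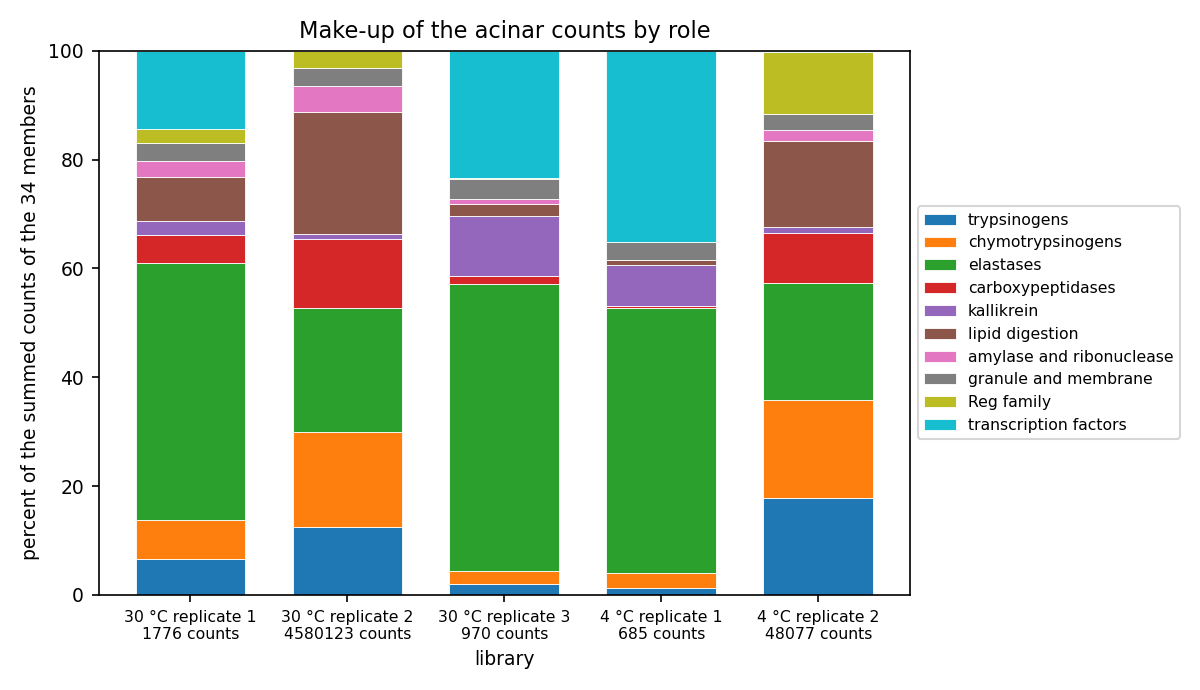
Percent of the summed counts of the 34 members that falls to each role, by library, with the number of member counts under each bar. The Reg family takes 3.13% in 30 °C replicate 2 and 11.3% in 4 °C replicate 2, and in the 3 libraries with 1776 member counts or fewer Cela1 (elastases) and Bhlha15 (transcription factors) fill most of the bar.

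Amylase, the starch-digesting enzyme, took a smaller share. Amy2a5 had 1.77, 6933 and 0.443 CPM at 30 °C, and 0 and 10.2 CPM at 4 °C. Of the member counts it held 2.50% in 30 °C replicate 2 and 0.343% in 4 °C replicate 2, with a ratio of 0.137 (95% counting interval 0.118 to 0.160). The pancreatic amylase genes are near-identical copies: all 50-base windows of the Amy2a3 transcript also occur in other genes, and 57.2% of those of Amy2a5 do. The copies did not keep step, since Amy2a3 was 1.44-fold more abundant relative to the member counts in 4 °C replicate 2, while Amy2a1 stood at 0.231. Summed over the 6 amylase entries Amy2a1 to Amy2a5 and Amy2b, the ratio was 0.50 (0.481 to 0.520), from 504223 and 2647 counts. Amy2a5 held 22.7% of the counts of these entries in 30 °C replicate 2 and 6.23% in 4 °C replicate 2, and the part of read assignment in its ratio was not tested. Among genes with no shared window, Pnlip (ratio 0.558), Cel (0.594) and Ctrl (0.618) also had smaller shares in 4 °C replicate 2. At the other end, the 6 trypsinogens among the members together made up 12.6% of the member counts in 30 °C replicate 2 and 17.8% in 4 °C replicate 2.

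Most other genes of the exocrine pancreas were also highest in 30 °C replicate 2. Of the 34 measured genes in a list of further acinar genes, 31 were highest in 30 °C replicate 2. With more than 3 counts required, 22 were higher in 4 °C replicate 2 than in each of the remaining 3 libraries. Among them Spink1, the trypsin inhibitor of acinar cells, had 3008 and 51 counts in these libraries and 0 in the others. Cckar, the cholecystokinin receptor, reached 139 CPM in 30 °C replicate 2 and between 0.0572 and 1.61 CPM in the other 4. Transcription factors outside the members did not share this order. Of the 9 measured, 5 were highest in 30 °C replicate 2. In 4 °C replicate 2, 0 were higher than in each of the remaining 3 libraries. In CPM, their sum was lowest in 30 °C replicate 2 (532 CPM against 572 to 697 CPM). Nr5a2 and Gata4, factors of the acinar lineage, had 11.6 and 12.2 CPM in 30 °C replicate 2 and at most 0.591 CPM elsewhere. Tcf3, Tcf12 and Rbpj, which are expressed in many cell types, had their lowest CPM there. The members took 27.7% of the counts of that library, which lowers the CPM of all other genes in it (TMM factor 0.738). The low CPM of these 3 factors and of the sum are therefore not read as fewer transcripts. Ranked by the smaller of their log2 ratios in 30 °C replicate 2 and 4 °C replicate 2 over the highest of the remaining 3 libraries (0.5 CPM added), the 10 non-members most like the members, out of genes with at least 100 counts in 30 °C replicate 2, included Dmbt1, Reg3a, 2210010C04Rik, Amy2b, Amy2a4, Amy2a3, Reg3g, Tff2 and Amy2a1. This measure was taken over 5 libraries. Dmbt1, a secreted scavenger receptor, led with 2886 CPM in 30 °C replicate 2, 63.0 CPM in 4 °C replicate 2 and at most 0.229 CPM elsewhere.

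Transcripts of other pancreatic cell types were seen in 30 °C replicate 2. Of 18 islet genes, 11 were highest there, and their sum was 76.9 CPM against 1.40 to 5.13 CPM in the other 4 libraries. Ins2, one of the insulin genes of the mouse, had 567 counts in 30 °C replicate 2 and 0 in 4 °C replicate 2, and the glucagon gene Gcg had 150 and 4. In 4 °C replicate 2, 11 of the 18 islet genes had 0 counts, and Pdx1, a factor of pancreas and duodenum, gave 56 of its islet counts. The member sum there was 93.3-fold lower than in 30 °C replicate 2. At equal proportions most islet genes would lie near or under the floor of 3 counts, so their zeros are not read as absence. Ins2, the most abundant of them in 30 °C replicate 2, would lie above that floor, yet it had 0 counts in 4 °C replicate 2. Whether islet transcripts kept their proportion to acinar ones was not tested. The 10 genes of the duct list summed to 62.2 CPM in 30 °C replicate 2, of which Muc1 gave 46.9, and to between 2.63 and 9.63 CPM in the other libraries. Neighbouring organs were checked in the same way. The salivary list reached 75.4 CPM in 30 °C replicate 2 through Amy1 alone apart from 1 count, with 10 of its 12 genes at 0 there. Stomach genes stayed between 0.837 and 1.94 CPM and small intestine genes between 3.49 and 9.69 CPM in all 5 libraries. The liver list was highest in 30 °C replicate 3, at 42.3 CPM.

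**Figure D4:**
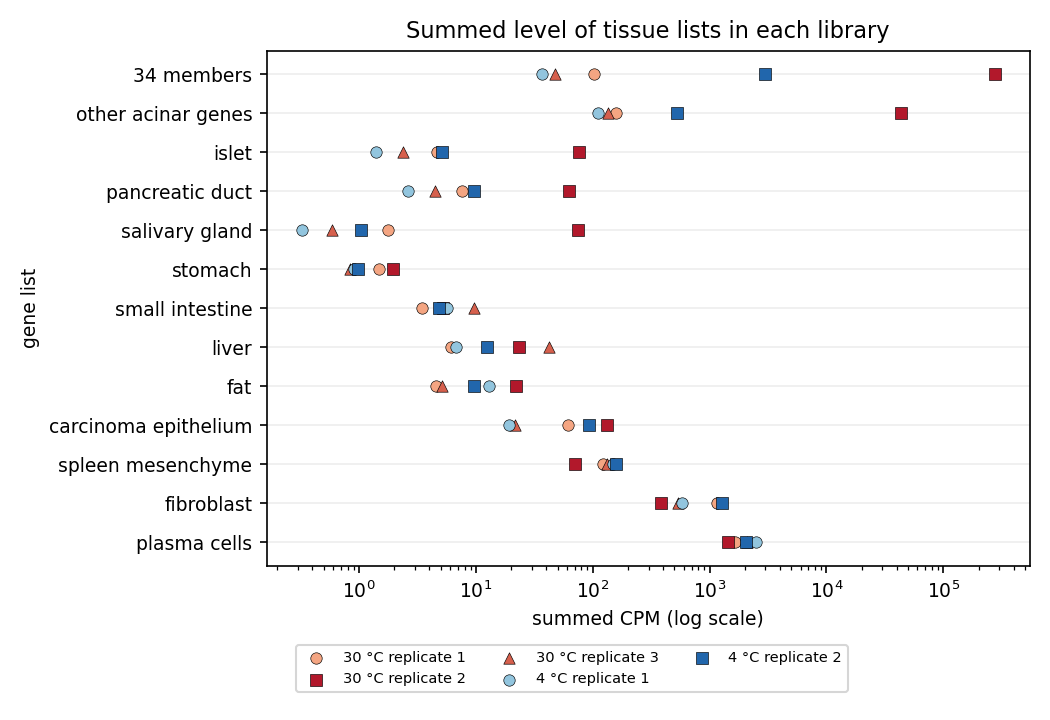
Summed CPM (log scale) of the 34 members and of 12 other tissue lists in each library. In 30 °C replicate 2 the members, the further acinar genes and the islet, duct and salivary lists lie far to the right of the other libraries, the salivary list through Amy1, while stomach and small intestine lists do not separate.

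The contrast of 4 °C with 30 °C was read from a fit over all genes. It uses the library values that chose the members: genes taken for high levels in 1 tumour of each group must overlap between the groups and vary widely within them. The shares of all genes are therefore given only beside the counts, and nothing about the members is read from the comparison. After filtering with filterByExpr, 29 of the 34 members were among the 16133 genes tested with the quasi-likelihood test of edgeR. No member was called (0 of 29 at a Benjamini-Hochberg adjusted p under 0.05, with 0.0% of all genes tested called). At an unadjusted p under 0.05 the count was 0 of 29, with 6.76% of all genes tested at that level. The TMM-scaled values of the groups overlapped for all 34 members, and they did not overlap for 23.3% of all genes tested. The smallest p among the members belonged to Bhlha15, whose fitted difference was −1.70 on the log2 scale with a standard error of 1.00 (edgeR, adjusted p = 0.81). For Ctrb1 the fitted difference was −6.28 with a standard error of 6.59 (edgeR, adjusted p = 0.89), so the error exceeded the difference.

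Other fits gave other counts. DESeq2 as set by default returned no p at all for 28 of the 29 members, so it gave no count of members (it called 1.01% of the genes with an adjusted p). With its cutoff on Cook's distance, a measure of how far 1 library drives a fit, turned off, all 29 members had a p. In that fit 0 of 29 were called, with 1.05% of all genes called, and 7 of 29 were at an unadjusted p under 0.05, with 7.93% of all genes at that level. The 7 were Cela1, Amy2a5, Gp2, Klk1, Ctrl, Pnlip and Zg16. Adding the replicate number as a block in edgeR brought calls for 20 of the 29 members, with 0.273% of all genes called. Nothing shows that the numbers pair the tumours. The libraries that chose the members carry the same number, so the block takes up the pattern of that choice. These calls are therefore not read as a result about the members.

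The direction of the contrast turned with a single library. In the fit over 5 libraries all 29 members tested were lower at 4 °C, as were 49.3% of all genes, with a median log2 fold change of −6.31 over the members and 0.0064 over all genes. With no filter all 34 were tested and all 34 were lower. Without 30 °C replicate 2, 22 members were tested and 21 of them were higher at 4 °C, as were 49.3% of all genes in that fit, with a median log2 fold change of 5.66. Both directions follow from the choice of members, since each fit sets the high library it holds, or the higher of them, against low ones. None was called without 30 °C replicate 2 (adjusted p = 1.00 from edgeR for each), and 1 member, Gp2, was at an unadjusted p under 0.05, with 3.24% of all genes at that level. Bhlha15 was the member that stayed lower at 4 °C in both fits, with a log2 fold change of −0.22 without 30 °C replicate 2.

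**Figure D5:**
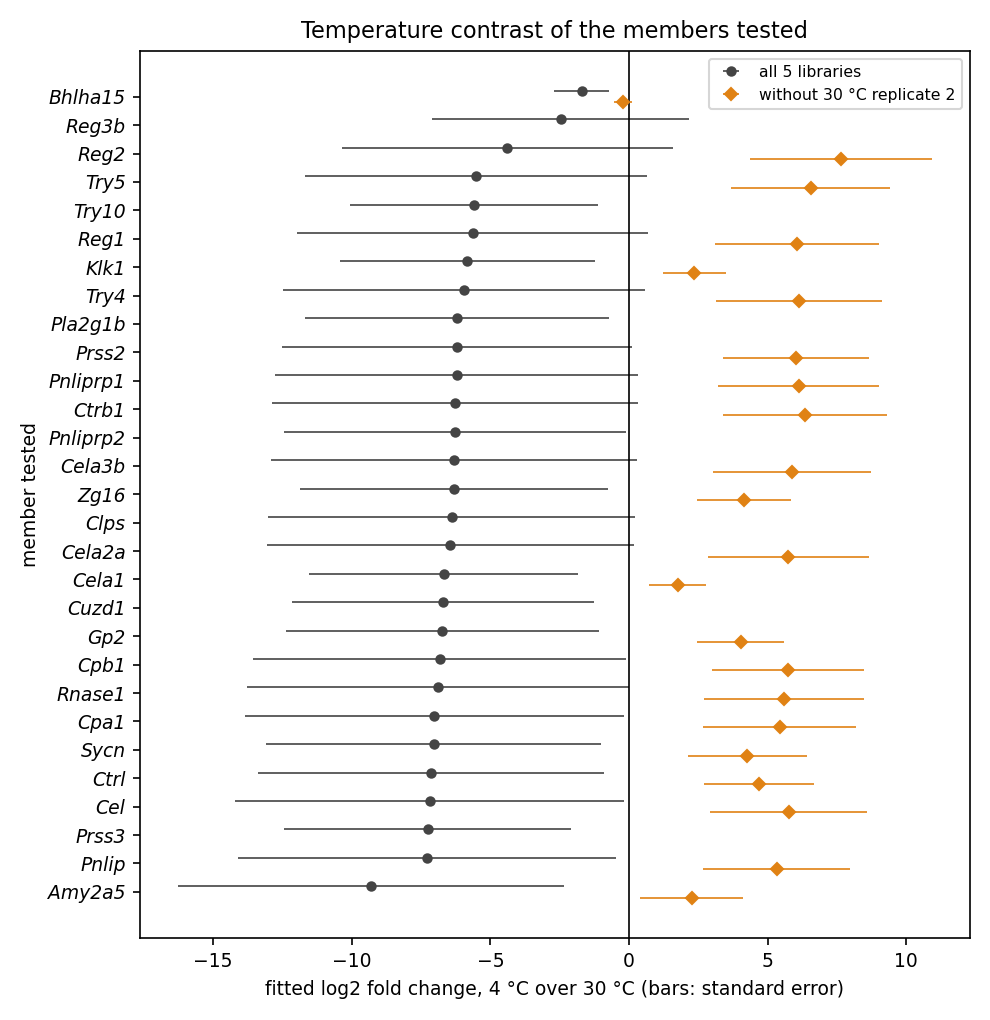
Fitted log2 fold change (4 °C over 30 °C, bars give the standard error) of the 29 members tested with all 5 libraries (circles) and of the 22 tested without 30 °C replicate 2 (diamonds). All circles lie below 0 and all diamonds except that of Bhlha15 above it.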

How the data were processed

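RNA of 5 tumours was sequenced by the authors (3 at 30 °C, 2 at 4 °C). The deposited values are raw counts per gene symbol. For counting, the paper names featureCounts with Gencode vM19 as annotation. The submitters' processing notes name fastp, HISAT, RSEM and GRCm38, so the tool that gave the deposited counts is uncertain. Strand setting and the handling of shared reads are not given in the sources used here. The 333 entries without a name (0.0101% to 0.0170% of counts) were left out, and no member symbol was repeated. Depth was 16191708 to 20320525 counts.

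The labels do not say that the tumours came from separate animals, so p-values measure the spread between these samples. CPM were computed on the total of named counts, with Wilson intervals (scipy 1.17.1). Groups were compared in R 4.3.3 with edgeR 4.0.16 (filterByExpr, TMM, robust quasi-likelihood F-test, no covariate). A gene was called at an adjusted p under 0.05. DESeq2 1.42.0, the tool the authors used, with and without its Cook's distance cutoff, RLE and upper-quartile scaling, TMM factors without the members, no filter, the replicate number as a block and each library left out were alternatives. The fit was tested on simulated counts. Standard errors are the fold change over the root of F. Exon lengths, coordinates and shared 50-base windows come from GENCODE M21, promoters from RefSeq. All 34 members are named. In other lists at most the 4 most abundant genes were to be named, and genes named beyond these or beyond the 10 most alike (Spink1, Reg3d, Nr5a2, Gata4, Pdx1 and Cdx2) were chosen after their values were seen. For 1 listed gene no values are reported here. Members and lists were chosen with earlier results of these data known.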

Additional observations from a re-analysis of the deposited data

How the results depend on the processing

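The count of members called, 0, was also 0 with RLE scaling, upper-quartile scaling, TMM factors without the members and no filter, and with each library left out in turn (0 to 0). Members at an unadjusted p under 0.05 ran from 0 to 1 over the 5 fits that each left out a library, and genes called over all genes from 0 to 0. DESeq2 called 118 genes but gave 28 of the 29 members no p. Without its Cook's distance cutoff, an alternative chosen after seeing the data, it called 120 genes and 0 members, and 7 members were at an unadjusted p under 0.05. With the replicate block, 20 of 29 members were called, 22 were at an unadjusted p under 0.05, and 44 genes (0.273%) were called in all. The labels do not tie equal numbers to a shared animal or batch, so the numbers were not taken to pair the samples. The deviations of same-numbered libraries from their group means correlated at −0.25 for number 1 and 0.26 for number 2. In the group of 2 tumours the deviations are mirror images, so crossing the numbers only flips each sign (0.25 and −0.26). These correlations therefore cannot decide whether the numbers pair the tumours. Number 2 is carried by both libraries rich in acinar transcripts, which chose the members, so the calls with the block follow from that choice.

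The median log2 fold change of the members ran from −15.5 to 5.66 over the fits that each left out a library, and it was 5.66 without 30 °C replicate 2 and −15.5 without 4 °C replicate 2. That of Ctrb1 ran from −15.5 to 6.34, that of Bhlha15 from −2.14 to −0.22 (edgeR, adjusted p = 0.60 to 1.00) and that of Reg3b, not tested without 30 °C replicate 2, from −15.4 to −1.46. Where 1 tumour at 4 °C remains, it is assumed to vary like the other group.

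On TMM-effective library sizes, the summed member CPM was 94.4, 375441 and 42.3 in 30 °C replicates 1, 2 and 3 and 34.03 and 2877 in 4 °C replicates 1 and 2. Without Bhlha15, Zg16, Klk1, Rnase1 and Cela1 these sums were 41.2, 241939, 6.40, 2.90 and 2643. Without the trypsinogens they moved beyond counting error in 3 libraries, to 94.8, 242192 and 2439 in 30 °C replicates 1 and 2 and 4 °C replicate 2. Summing repeated symbols changed no sum. Against a pool of the 21 members with no shared window, an alternative chosen after seeing the data, the share ratios were 17.2 for Reg3b, 4.54 for Reg2, 0.149 for Amy2a5, 0.607 for Pnlip and 1.22 for Ctrb1. Depth limits Ptf1a, Rbpjl, Prss1 and Cela3a, and members in the 3 libraries with few acinar counts.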
